A study of Homo sapiens with 6 samples.

Results

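The genes described here are 37 genes that mark hepatocytes or regulate their identity, followed in 6 messenger RNA libraries. They were chosen by name and comprise 9 plasma protein genes, 6 apolipoprotein genes, the 3 fibrinogen chain genes, the surface proteoglycan gene GPC3, 10 transcription factor genes, 4 nuclear receptor genes and 4 metabolic enzyme genes, out of 50229 distinct gene symbols in the deposited table. All 37 were found in the table, each in a single row. The libraries came from human cells labelled as the hepatocellular carcinoma line Hep3B, with liver as the tissue. In 3 libraries (siEIF4G2) the cells had received siRNA, a short RNA that triggers breakdown of a matching transcript, directed at the translation initiation factor gene EIF4G2. In the other 3 (siNC) they had received a negative control siRNA. The dose was 50 nM in both, so the controls were transfected too. Neither the time after transfection nor the independence of the cultures is labelled. The p-values therefore reflect only how much these libraries vary, which may be technical variation.

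Hepatocytes make most of the proteins of blood plasma, package lipids into lipoproteins and metabolise drugs, amino acids and bile acids. Their identity is held by a network of transcription factors, among them HNF4A, the FOXA factors, CEBPA, the ONECUT factors and nuclear receptors, which bind together at the promoters and enhancers of liver genes and at one another's genes. Hepatocellular carcinoma lines keep parts of this programme, and Hep3B is known as a line that secretes plasma proteins, including albumin and alpha-fetoprotein.

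The depth of the libraries ranged from 63351653 to 72863628 counts, with 8.03% to 9.02% on mitochondrial genes. EIF4G2 read 1104, 914 and 999 CPM (library-scaled counts, using edgeR's TMM factors) in siNC replicates 1, 2 and 3 and 178, 180 and 200.1 CPM in siEIF4G2 replicates 1, 2 and 3, which on the log2 scale is a difference of -2.43 (SE 0.09) with an adjusted p of 0.000207 by edgeR. EIF4G2 overlaps CTR9 on the other strand by 4576 bases, and whether strand was used in counting is unknown. All 20 genes of a list of genes that every cell uses were detected in these libraries. The levels of ALB and AFP given below go against what is known of the labelled line, and no other cell type is given here in its place.

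In the siNC libraries 22 of the 37 hepatocyte genes had no count, and 8 had counts in all 3. Over all 6 libraries most of the hepatocyte genes were not detected. A gene was taken as detected, and tested, where it reached 0.5 FPKM (fragments scaled by transcript length and library depth) in at least 3 of the 6 libraries. Of the 37 genes, 4 passed, 14 had counts in at least 1 library without passing (called trace below), and 19 were listed at 0 counts in all 6 libraries. The 4 that passed, 10.8% of the 37, were all transcription factor genes: ONECUT2, FOXA1, CEBPA and GATA6. By the same filter 57.3% of 19495 protein-coding genes passed. Of the 37, 19 were annotated to the extracellular region and 18 to the extracellular space in the deposited table and 0 of them passed, where 33.3% of 2462 and 30.9% of 1834 genes so annotated did. In bulk RNA, fewer cells of a type and less RNA per cell cannot be told apart.

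Deposited counts are rounded estimates in which 4, 8 and 12 stand out among low values, with 7523 values of 4 against 3060 of 3 and 1680 of 5. The upper limit for a count of 0 was therefore set at 3 steps of 4, or 12 counts, which is 0.165 to 0.189 CPM at these depths and covers counting error only. Of the 14 genes at trace, 7 stayed at or under 12 counts in every library, and none was above it in all 6. Together the 33 genes that did not pass summed to 99, 139 and 157 counts in siNC replicates 1, 2 and 3, and to 112, 80 and 90 counts in siEIF4G2 replicates 1, 2 and 3.

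**Figure D1:**
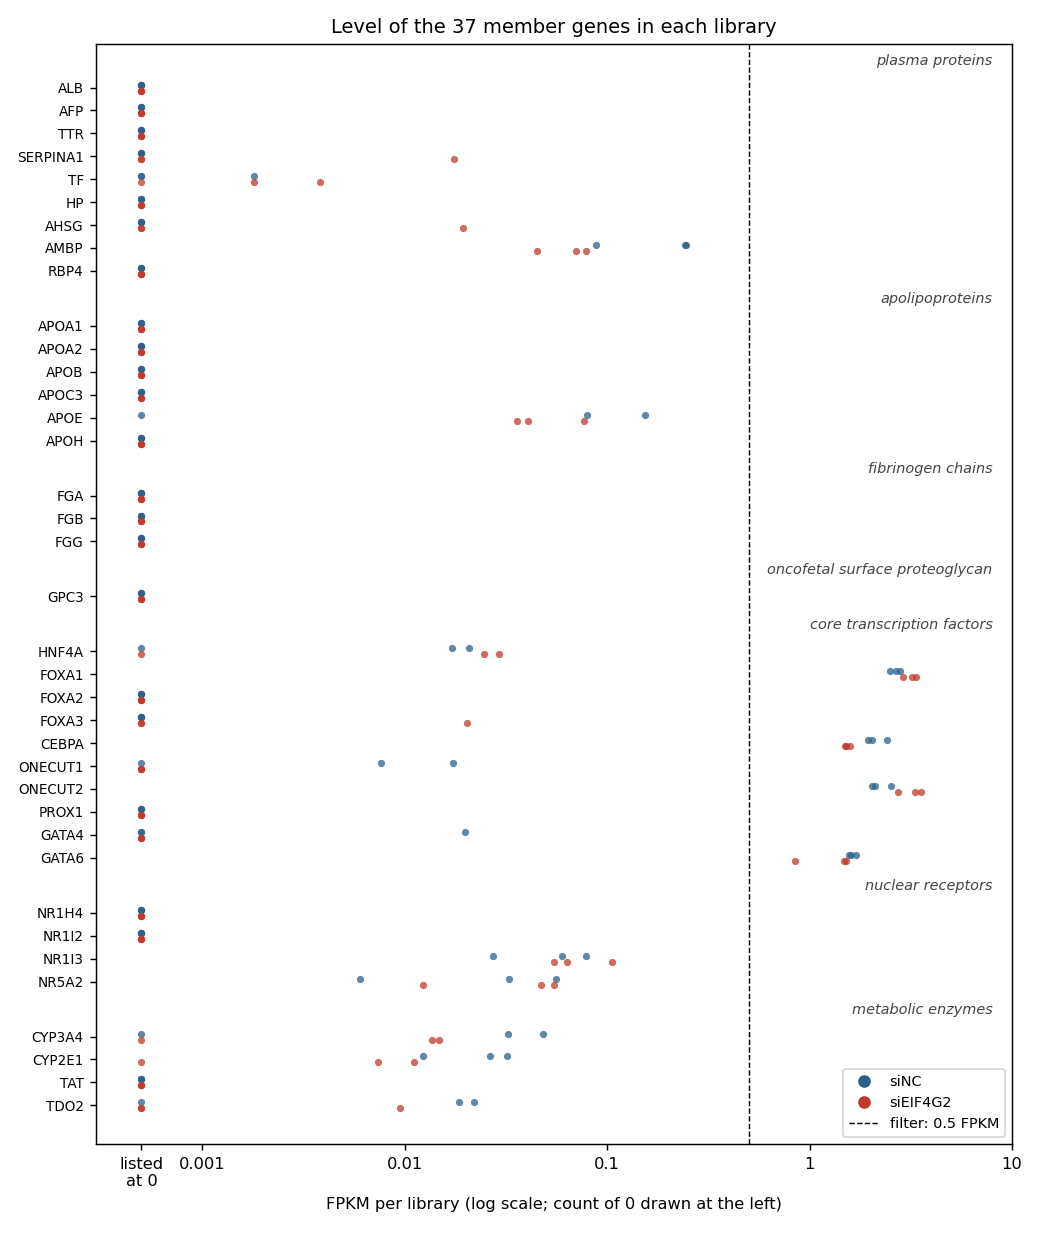
FPKM of each of the 37 genes (rows, grouped by role) in each library, on a log axis, with siNC in blue, siEIF4G2 in red and a count of 0 drawn at the left. Only ONECUT2, FOXA1, CEBPA and GATA6 lie to the right of the dashed line at 0.5 FPKM, and no value of the other 33 genes is above 0.245 FPKM.

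Among the plasma protein genes, ALB (albumin, the main carrier protein of plasma), AFP (alpha-fetoprotein, its fetal relative), TTR (transthyretin, which carries thyroid hormone and retinol-binding protein), HP (haptoglobin, which binds free hemoglobin) and RBP4 (the retinol carrier) were listed at 0 in all 6 libraries. ALB and AFP are neighbours on chromosome 4 (GRCh38, 73397114 to 73421410 and 73431138 to 73455743, both on the plus strand). The 250 bases before the RefSeq start of each gene (GRCh38.p14, chr4:73404037-73404286 and chr4:73435971-73436220) are shown because these are the best known markers of the lineage and both were listed at 0. Capitals mark GTTAAT or its reverse complement ATTAAC, of which each stretch holds 1 copy.
ALB: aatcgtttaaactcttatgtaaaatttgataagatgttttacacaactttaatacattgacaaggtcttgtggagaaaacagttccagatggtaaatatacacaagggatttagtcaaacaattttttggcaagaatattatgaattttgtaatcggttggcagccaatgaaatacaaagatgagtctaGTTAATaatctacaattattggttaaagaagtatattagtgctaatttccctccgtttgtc
AFP: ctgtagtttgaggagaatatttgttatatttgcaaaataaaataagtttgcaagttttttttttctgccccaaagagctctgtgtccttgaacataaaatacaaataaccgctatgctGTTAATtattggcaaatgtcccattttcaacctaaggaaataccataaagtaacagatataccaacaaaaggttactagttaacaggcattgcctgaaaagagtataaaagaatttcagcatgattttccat

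The other 4 plasma protein genes were at trace. SERPINA1 (alpha-1 antitrypsin, an inhibitor of neutrophil elastase) had 8 counts in siEIF4G2 replicate 1 and AHSG (fetuin A, a mineral-binding glycoprotein) had 4 counts in the same library, and both were at 0 in the other 5. TF (transferrin, the iron carrier) had 4 counts in siNC replicate 2, 4 in siEIF4G2 replicate 2 and 8 in siEIF4G2 replicate 3. AMBP (the precursor of alpha-1-microglobulin and bikunin) was the highest of the 33 undetected genes, with 39, 38 and 15 counts in siNC replicates 1, 2 and 3 against 8, 11 and 12 in siEIF4G2 replicates 1, 2 and 3. The AMBP groups did not overlap, but each siEIF4G2 count was within the limit for a count of 0. AMBP did not pass when all 27064 genes with any count were fitted (log2 fold change -1.53, SE 0.53; edgeR adjusted p = 0.119).

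The lipoprotein and fibrinogen genes were at or near 0. APOA1 and APOA2 (the main proteins of high-density lipoprotein), APOB (the structural protein of low-density lipoprotein), APOC3 (an inhibitor of triglyceride clearance) and APOH (beta-2-glycoprotein I) were listed at 0 in all 6 libraries. APOE, which carries lipids to cells and is also made by macrophages and astrocytes, had 0, 15 and 30 counts in siNC replicates 1, 2 and 3 and 7, 14 and 8 in siEIF4G2 replicates 1, 2 and 3. The APOE groups overlapped. FGB, FGA and FGG, the chains of fibrinogen, form a cluster on chromosome 4 between 154563011 and 154612849 and were each listed at 0 throughout. GPC3, a heparan sulfate proteoglycan of fetal liver and many hepatocellular carcinomas, was also listed at 0 in every library.

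The enzyme genes were likewise undetected. TAT, which starts tyrosine breakdown, was listed at 0 throughout. TDO2, the first enzyme of tryptophan breakdown, had 9, 10 and 0 counts in siNC replicates 1, 2 and 3 and 0, 0 and 4 in siEIF4G2 replicates 1, 2 and 3. CYP3A4, the main drug-oxidising cytochrome P450, had 0, 14 and 10 counts in siNC and 0, 4 and 4 in siEIF4G2, in the same replicate order. CYP2E1, which oxidises ethanol, had 10, 26 and 22 counts in siNC and 10, 6 and 0 in siEIF4G2, and it overlaps SCART1 on the same strand by 3153 bases. The groups overlapped for TDO2 and CYP3A4, and for CYP2E1 replicate 1 had 10 counts in both groups.

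None of the 4 nuclear receptor genes was detected. NR1H4 (the bile acid receptor FXR) and NR1I2 (the drug-sensing receptor PXR) were listed at 0 in all 6 libraries. NR1I3 (CAR, a further drug-sensing receptor) had 17, 8 and 23 counts in siNC replicates 1, 2 and 3 and 16, 18 and 27 in siEIF4G2 replicates 1, 2 and 3, which overlap. The NR1I3 interval overlaps 1079 bases of TOMM40L on the other strand, which had 1311 counts on average in siNC and 2529 in siEIF4G2. NR5A2 (LRH-1, a regulator of bile acid and cholesterol genes) had 4, 20 and 36 counts in siNC and 36, 8 and 27 in siEIF4G2.

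Of the 10 transcription factor genes, 6 were not detected. HNF4A, the nuclear receptor at the centre of the hepatocyte network, had 11, 0 and 13 counts in siNC replicates 1, 2 and 3 and 19, 15 and 0 in siEIF4G2 replicates 1, 2 and 3. FOXA2, a pioneer factor of endoderm, and PROX1, a homeodomain factor of liver and lymphatic cells, were listed at 0 throughout. FOXA3 had 4 counts in siEIF4G2 replicate 1 alone, and GATA4 had 8 counts in siNC replicate 3 alone. ONECUT1 (HNF6) had 9, 4 and 0 counts in siNC and 0 in each siEIF4G2 library. Within families, FOXA1 passed where FOXA2 and FOXA3 did not, ONECUT2 where ONECUT1 did not, and GATA6 where GATA4 did not. Of 857 genes annotated to DNA-binding transcription factor activity, 57.9% passed the filter, as did 4 of the 14 so annotated among the 37.

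Many genes near the undetected ones were detected. For 24 of the 33, a protein-coding gene that passed the filter lay within 100000 bases. The same share was not computed for other genes, so the count is not read as particular to these. Some of the undetected genes are clustered and share a neighbour, such as PLRG1 for FGA, FGB and FGG, and SIK3 for APOA1 and APOC3. Leaving out overlapping genes, the nearest such gene was between 795 and 1155719 bases away, with a median level of 7.33 FPKM in siNC. PLRG1, 12611 bases from FGB, read 12.6 ± 0.584 FPKM (SD, n = 3), and DSG2, 8001 bases from TTR, read 37.2 ± 0.66 FPKM. SIK3, 5788 bases from APOA1, read 2.54 ± 0.0359 FPKM, and TOMM40, 2102 bases from APOE, read 26.6 ± 6.51 FPKM. The HP interval overlaps 6551 bases of TXNL4B on the other strand, which had 1033 counts on average in siNC, while HP was listed at 0.

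The 4 detected transcription factor genes were low to moderate in level. In siNC, FOXA1 was highest per length at 2.65 ± 0.15 FPKM (SD, n = 3), followed by ONECUT2 at 2.22 ± 0.26, CEBPA at 2.13 ± 0.25 and GATA6 at 1.62 ± 0.07 FPKM. The siNC values of FOXA1 and ONECUT2 overlapped, as did those of ONECUT2 and CEBPA, whereas each of the 3 GATA6 values lay below each of the 3 CEBPA values. Their siNC means were above those of 36.1%, 31.6%, 30.5% and 24.2% of the 13748 tested genes, in the same order, and the median of the tested genes was 4.38 FPKM. FOXA1 is also made in lung, gut, breast and prostate epithelium, ONECUT2 in neural and gut cells, GATA6 in many endodermal and heart cells, and CEBPA in myeloid cells and adipocytes, so that none of the 4 is restricted to liver.

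The design compares transcript levels with and without silencing of EIF4G2. ONECUT2 rose and CEBPA fell, each by 1.41-fold, while FOXA1 and GATA6 did not pass the threshold (edgeR's quasi-likelihood test, Benjamini-Hochberg adjusted p under 0.05 over all 13748 tested genes). Of all tested genes 15.9% were called higher and 17.6% lower, 33.4% in all, and with 4 genes tested a count of 2 is not read as a result about the set. The 3 values of each group lay apart for all 4 genes, which also held for 50.6% of all tested genes. Taken singly, each of the 4 genes reached p = 0.1 in an exact two-sided permutation test, and 3 against 3 libraries can give no smaller p.

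ONECUT2, a homeodomain factor of early liver and endocrine development, lies on chromosome 18 from 57435374 to 57491298 on the plus strand. It read 40.7, 50.2 and 42.1 CPM in siNC replicates 1, 2 and 3 and 68.9, 54.4 and 64.2 CPM in siEIF4G2 replicates 1, 2 and 3. The lowest siEIF4G2 library was thus close to the highest siNC library, both replicate 2. The means were 44.3 ± 5.14 and 62.5 ± 7.43 CPM, and edgeR gave a log2 fold change of 0.49 ± 0.12 (SE) at an adjusted p of 0.0231.

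CEBPA, a leucine zipper factor that drives liver metabolism genes and restrains proliferation, lies on chromosome 19 from 33299934 to 33302534 on the minus strand. It read 6.14, 7.57 and 6.35 CPM in siNC replicates 1, 2 and 3 and 4.58, 4.98 and 4.64 CPM in siEIF4G2 replicates 1, 2 and 3. The siEIF4G2 libraries were close to one another and each was below the lowest siNC library. The means were 6.68 ± 0.77 and 4.73 ± 0.21 CPM, and edgeR gave a log2 fold change of -0.50 ± 0.12 (SE) at an adjusted p of 0.0234.

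Both calls were near the threshold and were lost when single libraries were left out, in fits with fewer libraries. ONECUT2 had adjusted p = 0.0651 and 0.0662 without siEIF4G2 replicates 1 and 3, and 0.0756 and 0.0738 without siNC replicates 1 and 3 (edgeR). CEBPA had adjusted p = 0.0693 and 0.0673 without siEIF4G2 replicates 1 and 3, 0.0628 without siNC replicate 2, and 0.0519 with no filter on low values (edgeR). Over all 16 alternatives the log2 fold change of ONECUT2 stayed between 0.38 and 0.59, and that of CEBPA between -0.56 and -0.30. The values 0.38 and -0.30 came from limma on log2(FPKM + 1), where the added 1 shrinks differences at these levels. The next smallest in size were 0.42 for ONECUT2, without siEIF4G2 replicate 1, and -0.40 for CEBPA, without siNC replicate 2.

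FOXA1, a forkhead pioneer factor that opens chromatin at liver enhancers, lies on chromosome 14 from 37589552 to 37595249 on the minus strand. It read 14.9, 13.3 and 14.3 CPM in siNC replicates 1, 2 and 3 and 17.5, 15.4 and 16.6 CPM in siEIF4G2 replicates 1, 2 and 3. Its log2 fold change was 0.22 ± 0.09 (SE), at an adjusted p of 0.106 by edgeR. GATA6, a zinc finger factor of endoderm, lies on chromosome 18 from 22169589 to 22202528 on the plus strand. It read 7.86, 7.31 and 7.2 CPM in siNC replicates 1, 2 and 3 and 6.6, 3.88 and 6.74 CPM in siEIF4G2 replicates 1, 2 and 3. A single library, siEIF4G2 replicate 2, was far below the rest. Its log2 fold change was -0.38 ± 0.22 (SE), at an adjusted p of 0.239 by edgeR, and -0.16 without that library (edgeR adjusted p = 0.30).

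**Figure D2:**
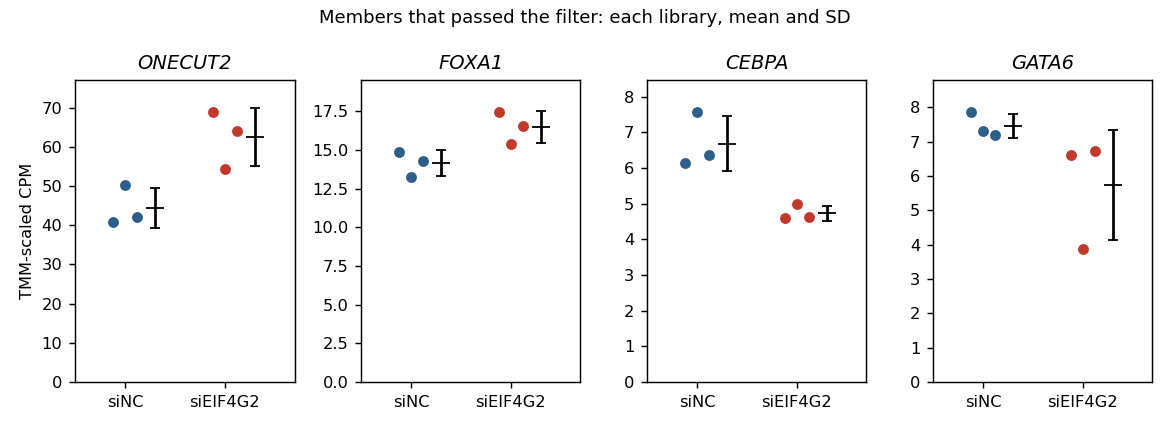
TMM-scaled CPM of ONECUT2, FOXA1, CEBPA and GATA6 in the 3 siNC libraries (blue) and the 3 siEIF4G2 libraries (red), with the mean and SD of each group in black and each axis starting at 0. The groups lie apart in all 4 panels, and in GATA6 siEIF4G2 replicate 2 at 3.88 CPM is far below the other libraries.

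With no filter on low values, the 14 genes at trace could be fitted too, and 0 of them passed (edgeR adjusted p), with 1, AMBP, at an unadjusted p under 0.05. The 19 genes listed at 0 in both groups gave no comparison.

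The wider hepatocyte programme was described with lists of other plasma protein genes, other enzymes and transporters, and partners of the regulators. Of 40 further plasma protein genes, 5 passed the filter, 20 were at trace and 15 were listed at 0 throughout. Of those 5, 2 fell and 0 rose, where 17.6% of all tested genes fell and 15.9% rose. Their median log2 fold change was -0.42, against 0.01 over all tested genes, and with 5 genes neither is read as a result about the list. VTN (vitronectin, an adhesion protein of plasma) went from 2.19 ± 0.415 to 0.615 ± 0.121 FPKM (edgeR log2 fold change -1.84, adjusted p = 0.00185). Its interval overlaps 3024 bases of SARM1 on the other strand, whose mean counts went from 836 to 269. LCAT (the cholesterol-esterifying enzyme of plasma) went from 1.46 ± 0.289 to 0.738 ± 0.0528 FPKM (edgeR log2 fold change -0.99, adjusted p = 0.00772), and it overlaps SLC12A4 on the same strand, whose mean counts went from 3662 to 1496. The part of these neighbours in the 2 falls was not tested. The other 3 did not pass, with log2 fold changes of -0.42 for APOM, 0.31 for F12 and 0.13 for SERPINF2.

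Some hepatocyte enzymes were abundant although most were not detected. Of 42 genes for enzymes and transporters, 7 passed the filter and 16 were listed at 0. In siNC, CPS1 (the first enzyme of the urea cycle) read 179 ± 8.08 FPKM and ASS1 (argininosuccinate synthase) 124 ± 1.81 FPKM, above 98.8% and 98.1% of tested genes, and ABCC2 (an exporter of conjugated bile pigments) read 26.4 ± 1.38 FPKM. Of the 7, 2 rose, 2 fell and 3 did not pass, beside 15.9% higher and 17.6% lower over all tested genes, and the median log2 fold change was -0.14. ASS1 fell to 94 ± 2.7 FPKM (edgeR log2 fold change -0.42, adjusted p = 0.00137) and ABCC2 to 21.4 ± 1.61 FPKM (edgeR log2 fold change -0.33, adjusted p = 0.0113). HPD (a dioxygenase of tyrosine breakdown) rose from 8.39 ± 0.573 to 11.9 ± 0.462 FPKM (edgeR log2 fold change 0.47, adjusted p = 0.00649), while TAT, which acts just before it, was listed at 0. TFR2 (a sensor of transferrin iron), the other gene that rose, had adjusted p between 0.0595 and 0.0686 (edgeR) when siEIF4G2 replicate 1, siEIF4G2 replicate 2, siNC replicate 1 or siNC replicate 3 was left out. CPS1 had a log2 fold change of 0.11 and did not pass (adjusted p = 0.306).

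Partners of the hepatocyte regulators were mostly detected. Of 47 genes, 34 passed the filter, 13 were at trace and 0 were listed at 0. Of the 34, 10 rose, 4 fell and 20 did not pass, with a median log2 fold change of 0.09. Over all tested genes 15.9% rose and 17.6% fell, 33.4% in all, so the number called among the partners is not read as particular to them. NR2F1 (COUP-TFI, an orphan nuclear receptor) rose from 7 ± 0.282 to 12.8 ± 0.481 FPKM (edgeR log2 fold change 0.85, adjusted p = 0.000412), and NR3C1 (the glucocorticoid receptor) from 6.52 ± 0.439 to 11.01 ± 0.696 FPKM (edgeR log2 fold change 0.73, adjusted p = 0.000897). FOXM1 (a forkhead factor of dividing cells) rose from 24.7 ± 1.44 to 43.9 ± 3.31 FPKM (edgeR adjusted p = 0.000934), and its interval overlaps RHNO1 and ITFG2. NR2F6 rose by a log2 fold change of 0.25.

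The 4 partners that fell, named here because they are few, were CEBPB, SREBF1, NR1H3 and PPARD. CEBPB, a relative of CEBPA that responds to inflammation, was the most abundant partner in siNC and went from 31.3 ± 2.22 to 25.0 ± 1.6 FPKM (edgeR log2 fold change -0.35, adjusted p = 0.0218). Within the C/EBP family, CEBPA and CEBPB fell, CEBPG rose (log2 fold change 0.24, adjusted p = 0.032) and CEBPD read 0.26 without passing. SREBF1, a driver of lipid synthesis genes, kept its call under all 16 alternatives. The calls of CEBPB, NR1H3 (LXR alpha) and PPARD were lost on leaving out single libraries. The count of partners that fell was 2, 2 and 3 without siEIF4G2 replicates 1, 2 and 3. It was 1, 1 and 2 without siNC replicates 1, 2 and 3. The 3 without siEIF4G2 replicate 3 included PPARGC1A, which was not called in the main fit (edgeR log2 fold change -0.48, adjusted p = 0.0412 without that library). CEBPG was lost without any of the 6 (adjusted p 0.0542 to 0.0955), and the count of partners that rose was 7 to 9 in those fits.

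**Figure D3:**
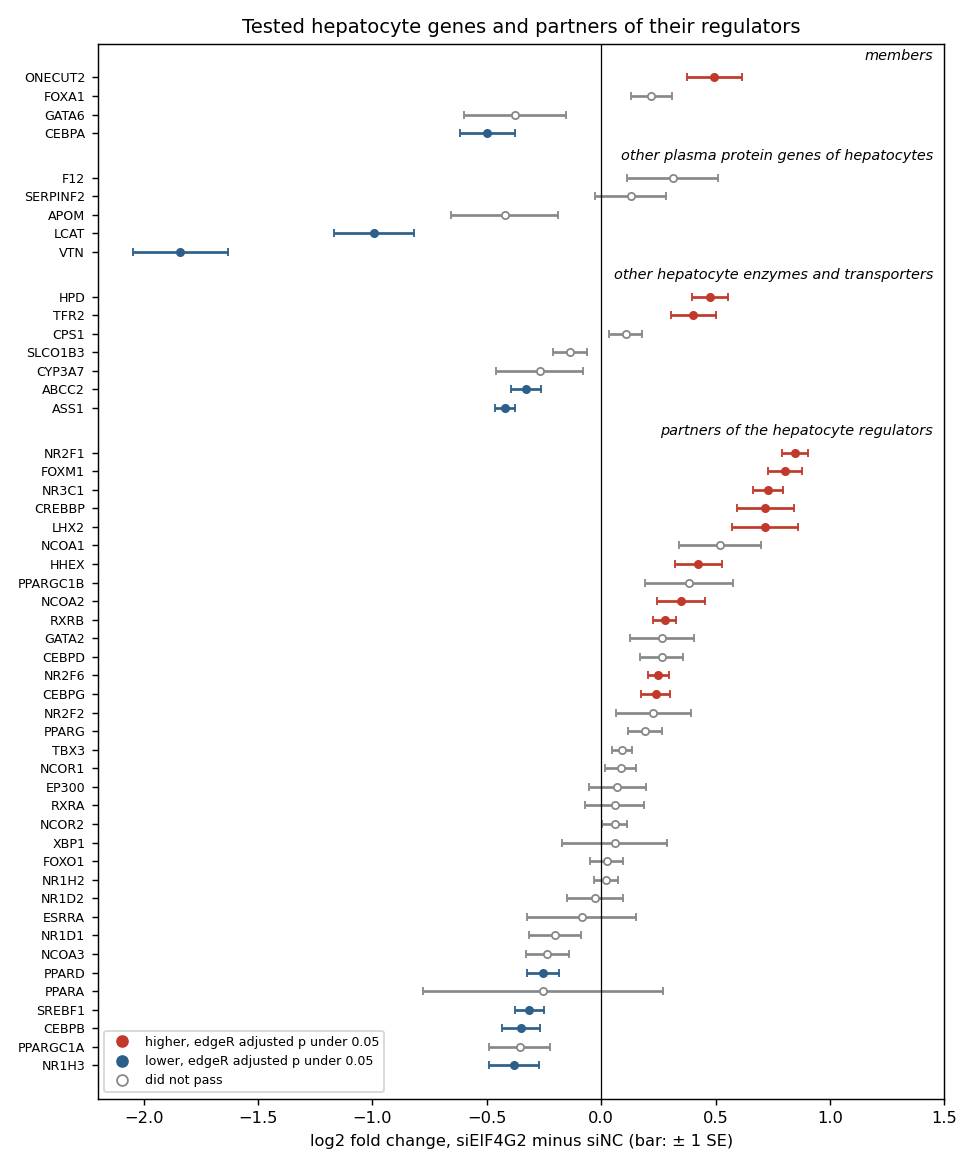
Log2 fold change (siEIF4G2 minus siNC, edgeR, bars of 1 SE) of each tested gene among the 37 hepatocyte genes, the 2 lists of further hepatocyte genes and the partners of the regulators, filled where the adjusted p was under 0.05. The lowest value is that of VTN at -1.84 and the highest that of NR2F1 at 0.85, with ONECUT2 at 0.49 and CEBPA at -0.50.

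Markers of other cell types were read in the same libraries. Of 15 epithelial markers, 8 passed, with a summed level of 597 to 621 FPKM in siNC and 458 to 499 in siEIF4G2. Of the 8, 0 were called higher and 3 lower, beside 15.9% and 17.6% over all tested genes. With 8 genes these counts are not read as a result about the list. KRT8 and KRT18, keratins of simple epithelia including hepatocytes, read 190.4 ± 3.21 and 195 ± 2.14 FPKM in siNC, and KRT7, a keratin of bile ducts and other glands, 173 ± 15.6 FPKM. The defining epithelial genes EPCAM and CDH1 were at trace, and ESRP1 and GRHL2 were at 0. Of 13 bile duct and progenitor markers, 6 passed, with sums of 266 to 296 FPKM in siNC and 179 to 199 in siEIF4G2. These sums were led by KRT7, which is also in the epithelial list, so that its level enters the sums of both lists. CD24, the next highest at 96.3 ± 22.3 FPKM in siNC, was not called (edgeR adjusted p = 0.627). SOX4 rose (edgeR log2 fold change 0.50, adjusted p = 0.00336), while KRT19 was at trace and DLK1 at 0. KRT7 fell in siEIF4G2 (edgeR log2 fold change -1.09, adjusted p = 0.000682), and it overlaps KRT7-AS, KRT86 and KRT87P.

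Of 22 mesenchymal and fibroblast markers, 16 passed and none was listed at 0, with sums of 949 to 1136 FPKM in siNC and 793 to 992 in siEIF4G2. VIM, the filament protein of mesenchymal and many cultured cells, read 117 ± 4.22 FPKM in siNC, and COL1A2 and PDGFRA were at trace. S100A4 was the largest part of the sums, at 761 ± 108 FPKM in siNC and 559 ± 105 in siEIF4G2. Its groups overlapped and it was not called (edgeR adjusted p = 0.0634). Of the 16, 4 were called higher and 5 lower, beside 15.9% and 17.6% over all tested genes. These counts are not read as a result about the list. The smallest edgeR p-values were those of FN1 (log2 fold change -0.76, adjusted p = 0.000481), PDGFRB (-1.19, 0.00302) and COL3A1 (0.35, 0.00334). Adipocyte markers, read because the extraction text speaks of an adipose type, passed for 3 of 13, CEBPA, PPARG and LPL. The sums over the 13 were 8.64 to 9.63 FPKM in siNC and 9.28 to 10.1 in siEIF4G2, mostly from these 3. LPL rose from 2.04 ± 0.1 to 2.69 ± 0.146 FPKM (edgeR log2 fold change 0.38, adjusted p = 0.0185). PPARG read 4.57 ± 0.154 FPKM in siNC and was not called (edgeR adjusted p = 0.102), while ADIPOQ, LEP and CIDEC were at 0. Endothelial markers passed for 1 of 10 (CDH5), with sums of 1.52 to 1.55 FPKM in siNC and 0.638 to 0.802 in siEIF4G2, and EMCN and CLEC4M at 0. CDH5 was most of each sum and fell from 1.28 ± 0.0545 to 0.432 ± 0.0649 FPKM (edgeR log2 fold change -1.59, adjusted p = 0.000756). ERG, at trace, went the other way, from 0.153 to 0.217 FPKM. Blood cell markers passed for 2 of 12, CD68 and HBA1. The sums over the 12 were 12.5 to 14.4 FPKM in siNC and 8.09 to 10.2 in siEIF4G2. CD68 was most of each sum and fell from 12.8 ± 1.09 to 8.39 ± 1.06 FPKM (edgeR log2 fold change -0.63, adjusted p = 0.0111). HBA1 read 0.383 FPKM in siNC and was not called (edgeR adjusted p = 0.44), and PTPRC and CD3E were at 0. The part of these marker levels in the changes of ONECUT2 and CEBPA was not tested.

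**Figure D4:**
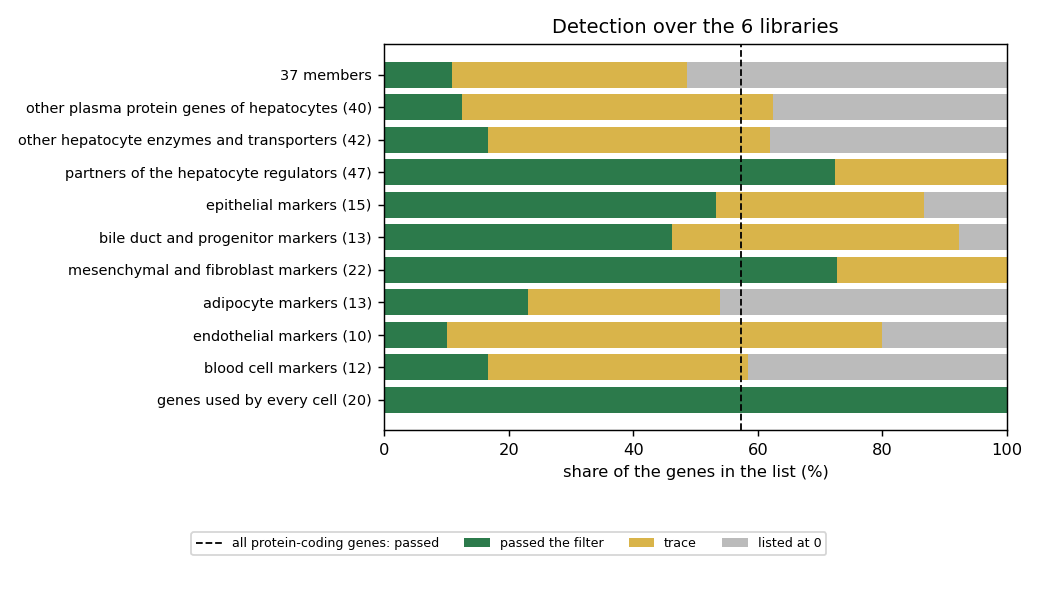
Share of each gene list (number of genes in parentheses) that passed the filter of 0.5 FPKM in 3 libraries, was at trace, or was listed at 0 in all 6 libraries. The 37 hepatocyte genes passed in 10.8% and the lists of further plasma protein genes and enzymes in 12.5% and 16.7%, against 72.3% of the partners, and the dashed line is the 57.3% of all protein-coding genes.

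Promoter windows of 300 bases (250 before to 50 after a RefSeq start, GRCh38.p14) were given for 27 of the 37 genes, in 37 windows, since a gene can have several starts. Those of the 4 detected genes held 24 to 50 CpG dinucleotides, with a median of 29.5, against 26 over all genes that passed the filter. Windows of the trace genes had a median of 9 (range 0 to 39) and those of the genes listed at 0 a median of 2.5 (range 0 to 42), against 12 and 4 over all genes of those classes. The medians of the 27 genes with a window thus fell in the same order as those of the whole table. Among undetected genes, RBP4 at 42, ONECUT1 at 39, FOXA3 at 37 and TF at 36 had a window within the range of the detected genes.

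The 250 bases before the start of CEBPA (GRCh38.p14, chr19:33302535-33302784, minus strand) and ONECUT2 (chr18:57435124-57435373, plus strand) are shown as those of the called genes, to be set beside the windows of ALB and AFP above. Capitals mark each CpG, of which they hold 41 and 20, while the same stretches of ALB and AFP hold 3 and 1.
CEBPA: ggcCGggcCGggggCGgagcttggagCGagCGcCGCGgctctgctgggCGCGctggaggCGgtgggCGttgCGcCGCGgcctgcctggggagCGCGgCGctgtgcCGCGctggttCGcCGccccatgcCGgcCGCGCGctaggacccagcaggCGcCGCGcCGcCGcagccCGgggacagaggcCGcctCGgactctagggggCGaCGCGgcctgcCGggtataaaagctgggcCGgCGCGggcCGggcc
ONECUT2: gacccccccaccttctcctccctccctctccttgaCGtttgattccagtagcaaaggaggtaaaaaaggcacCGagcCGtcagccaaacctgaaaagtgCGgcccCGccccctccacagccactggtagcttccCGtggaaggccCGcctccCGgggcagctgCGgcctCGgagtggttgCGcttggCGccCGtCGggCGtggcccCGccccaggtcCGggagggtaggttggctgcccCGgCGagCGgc

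**Figure D5:**
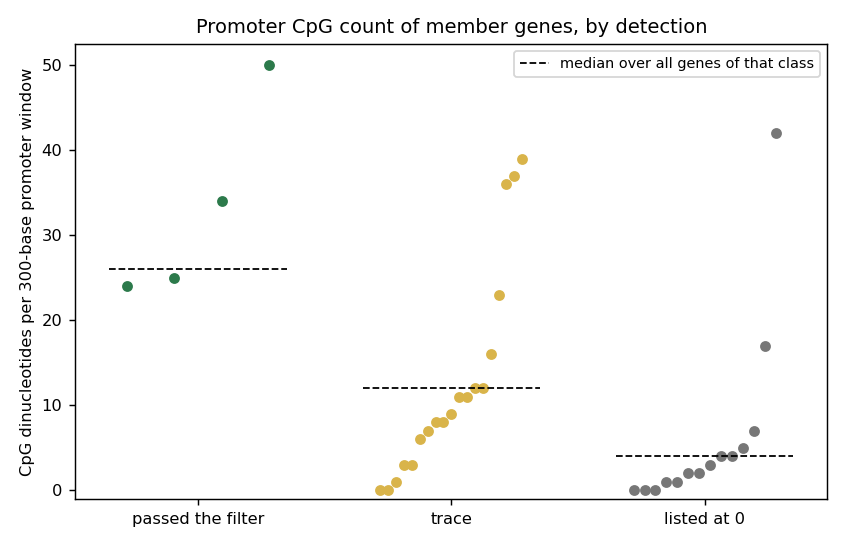
CpG dinucleotides in each 300-base promoter window of the 27 genes with a RefSeq window, split by whether the gene passed the filter, was at trace or was listed at 0, with windows in ascending order within a class and the dashed lines at the medians of all genes of that class. The detected genes lie at 24 or more, and most of the genes listed at 0 lie at 7 or fewer, with RBP4 at 17 and 42 as the exceptions.

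The letters GTTAAT, searched on both strands, were in a window of 9 of the 27 genes (33.3%), against 8.27% of 27305 genes in the promoter table. They were found in 6 of the 10 genes listed at 0 that have a window (ALB, AFP, APOH, FGA, FGB and NR1H4), in 3 of 13 genes at trace (HNF4A, NR5A2 and SERPINA1) and in 0 of the 4 detected genes. Over the whole table they were in 11.4% of genes listed at 0, 8.51% of genes at trace and 5.09% of genes that passed. Windows of the 10 genes were also poorer in G and C (median 43.5%) than those of all genes listed at 0 (50.3%) and all windows (58.7%). TGTTTAC, the letters of a forkhead site, was in 2 of the 27 genes (7.41%, against 4.19%), APOA2 and NR5A2, and TTGCGCAA, the letters of a C/EBP site, in 0 of 27 (0.172% of all genes).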

How the data were processed

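Poly(A) RNA of 6 libraries was sequenced in pairs, per the labels' protocols. The authors deposited a single table with, per library, a whole-number count, which behaves as a rounded estimated count, and an FPKM value, listed as 0.0001 where the count is 0. HISAT2 2.0 and StringTie 1.3.0 are listed in the submitters' processing notes. Not given in the sources used here are the genome build, the annotation and any use of strand. The intervals of all 37 genes overlapped those of the same identifiers in GENCODE release 29, so coordinates are given as GRCh38. Groups and replicate numbers come from the sample titles.

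Of rows sharing a symbol, the row with the highest mean FPKM was kept, and the 13748 genes that reached 0.5 FPKM in 3 or more libraries entered edgeR 4.0.16 (quasi-likelihood, TMM scaling, group only, two-sided) on the estimated counts, which were already whole numbers. Benjamini-Hochberg adjustment covered all 13748 genes. Standard errors were taken from the quasi-likelihood F statistic, as the size of the log2 fold change over its root. A count of 0 entered FPKM means as 0. Other software was limma 3.58.1, DESeq2 1.42.0, R 4.3.3, Python 3.11.15, numpy 2.4.6, pandas 2.3.3, scipy 1.17.1 and matplotlib 3.10.9. Simulated counts were used to test the edgeR script.

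All 37 genes are accounted for. Of each further list, up to 3 genes with the smallest p and up to 3 with the highest siNC level were to be named, and genes named beyond that (partners that fell or belong to the C/EBP family, TFR2, and markers at 0 or at trace) were chosen after their values were seen. The genes and lists were chosen with earlier results of these data known. Alternatives were other scalings, DESeq2, limma on log2(FPKM + 1) and log2(FPKM + 0.1), other filters, summed rows, each library left out, a replicate block and, chosen after seeing the data, counts divided by 4. Some genes of the lists are not reported here.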

Additional observations from a re-analysis of the deposited data

How the results depend on the processing

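Of the 37 hepatocyte genes, 18 could be fitted with no filter on low values against 4 with it, and in that fit 0 were lower, since CEBPA had an edgeR adjusted p of 0.0519. Leaving out each library in turn, the number of hepatocyte genes called higher was 0 to 1 and the number called lower 0 to 1. The libraries were numbered 1 to 3 in both groups, but same-numbered libraries did not deviate together (correlations -0.029, 0.016 and 0.029 across genes), so the numbers were not taken as pairs. With a replicate block in edgeR, 0 hepatocyte genes were higher (ONECUT2 adjusted p = 0.0782) and CEBPA stayed lower (adjusted p = 0.0446). All 4 detected genes kept their direction under all 16 alternatives. Of the 20 called genes of the 3 lists of further hepatocyte genes and partners, 13 kept their call under every alternative that tested them. The depth limits the genes at trace, whose highest count was 39.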
